A study of Homo sapiens with 8 samples.

Results

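The human genes whose symbols begin with SNORA or SCARNA were followed in KAS-seq peak lists of HEK293T cells kept with or without vitamin C. Members were all such genes of chromosomes 1 to 22 and X in the RefSeq gene table, 211 of 59094 genes, made up of 182 SNORA and 29 SCARNA genes. They fell into 175 loci, where members that share a host gene or whose neighbourhoods overlap were joined. KAS-seq marks opened DNA: N3-kethoxal reacts with guanines that are not base-paired, and DNA carrying the label is pulled out and read, which turns transcription bubbles into peaks. HEK293T is an established human embryonic kidney cell line, given by every sample title, while the cell line field of the labels carries a different number in each sample and was not followed. The control group was 2 labelled libraries of cells without vitamin C, and the vitamin C group was 2 labelled libraries of cells that spent 10 min in 0.5 mM vitamin C, also called ascorbic acid. The 10 min labelling step with N3-kethoxal at 5 mM was common to all 4. Unlabelled inputs, 4 in number, were not analysed here. The labels do not say whether replicates came from separate cultures, so the spread between them may be technical.

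Box H/ACA small nucleolar RNAs fold into hairpins followed by an H box and a 3′ ACA box, and together with the enzyme dyskerin they choose the uridines of ribosomal RNA that become pseudouridine. Small Cajal body RNAs (scaRNAs) do the same kind of work on the RNAs of the spliceosome. Their SCARNA symbols also cover guides of the box C/D type, which direct ribose methylation and include SCARNA2. Most human SNORA genes lie in introns of a host gene and are cut out of its intron RNA, so that they have no start site of their own. Many hosts are genes of the translation machinery, or RNAs whose known product is the snoRNA itself, such as the SNHG genes.

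Sequences of a few members and hosts show the letters at or near the peaks. RefSeq's miRNA table (GRCh38.p14) lists 7 miRNA hairpins inside or across members, and 5 of these hairpins span the place where the ACA box of the member should be, 3 bases before its 3′ end. All 5 have ACA there, which is no test, because the box is part of what defines such genes. Of all 1562 hairpins, 1.79% have ACA at that distance from the hairpin's own end, a different place from the end of a member. The stretches of 3 members with peaks are printed with the ACA box in capitals where it lies in the stretch. The first 50 bases of SNORA7A, from a RefSeq start window of RPL32 and on its strand (chr3:12840401-12840450, minus), are added as those of a kept member.
SNORA36A: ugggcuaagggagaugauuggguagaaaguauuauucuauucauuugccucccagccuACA
SNORA36B: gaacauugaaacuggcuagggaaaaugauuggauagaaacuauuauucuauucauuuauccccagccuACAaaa
SNORA81: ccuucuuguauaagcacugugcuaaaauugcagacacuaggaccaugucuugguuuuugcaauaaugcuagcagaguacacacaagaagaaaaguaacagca
SNORA7A: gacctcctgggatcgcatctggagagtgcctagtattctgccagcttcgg
SNORA36A (61 bases, chrX:154768596-154768656, plus strand) lies inside DKC1, the gene of dyskerin itself, and holds MIR664B. SNORA36B (74 bases of the minus-strand hairpin at chr1:220200538-220200619) lies in RAB3GAP2 and holds MIR664A, and the longest run of letters the 2 stretches share is 17. SNORA81 (102 bases of the plus-strand hairpin at chr3:186786672-186786777) lies in EIF4A2 and overlaps MIR1248, and its gene runs on past the hairpin. The stretch of SNORA36A has 15 guanines, that of SNORA36B 12, that of SNORA81 20 and that of SNORA7A 15, and guanines are the bases that the label can reach.

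The start windows of 4 hosts, 250 bases before to 50 after the annotated start, are printed as examples of windows that met a peak in all 4 libraries and whose hosts, RCC1, RPL32, EIF4A2 and SNHG8, hold kept members. Capitals mark a TATA box, searched by the letters TATAAA on both strands. They also mark an ETS core, searched by the letters CCGGAAG on both strands. The pyrimidine run CTCTTTC was searched as well, and no matches overlap in the printed windows.
RCC1: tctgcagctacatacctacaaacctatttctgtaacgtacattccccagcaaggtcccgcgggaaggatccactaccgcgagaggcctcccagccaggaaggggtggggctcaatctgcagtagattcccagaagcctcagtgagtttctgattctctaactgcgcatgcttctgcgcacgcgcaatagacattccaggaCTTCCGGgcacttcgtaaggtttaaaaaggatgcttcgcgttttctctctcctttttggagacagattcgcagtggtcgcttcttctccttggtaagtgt
RPL32: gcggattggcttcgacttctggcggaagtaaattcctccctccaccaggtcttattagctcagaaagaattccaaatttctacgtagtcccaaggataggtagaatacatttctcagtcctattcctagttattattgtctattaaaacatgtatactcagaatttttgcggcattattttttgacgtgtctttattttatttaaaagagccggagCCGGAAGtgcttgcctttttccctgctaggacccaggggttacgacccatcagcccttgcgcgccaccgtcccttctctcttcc
EIF4A2: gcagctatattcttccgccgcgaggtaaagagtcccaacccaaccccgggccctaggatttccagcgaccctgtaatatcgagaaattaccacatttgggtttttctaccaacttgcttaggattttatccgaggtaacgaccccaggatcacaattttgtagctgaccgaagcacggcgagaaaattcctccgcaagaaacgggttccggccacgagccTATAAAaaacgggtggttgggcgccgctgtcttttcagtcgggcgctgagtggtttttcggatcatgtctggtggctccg
SNHG8: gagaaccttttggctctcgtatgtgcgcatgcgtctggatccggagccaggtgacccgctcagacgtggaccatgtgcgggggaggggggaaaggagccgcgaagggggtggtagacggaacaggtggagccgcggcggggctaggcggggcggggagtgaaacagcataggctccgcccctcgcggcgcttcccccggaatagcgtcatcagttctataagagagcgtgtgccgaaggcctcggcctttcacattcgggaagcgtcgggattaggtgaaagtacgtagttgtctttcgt
These windows are chr1:28505793-28506092 on the plus strand for RCC1, chr3:12841533-12841832 on the minus strand for RPL32, chr3:186783327-186783626 on the plus strand for EIF4A2 and chr4:118278512-118278811 on the plus strand for SNHG8. Of 130 hosts with a start window in the table, 27 (20.8%) hold the ETS core, against 10.7% of all 27305 windows. The TATA box was in 5.38% of host windows and 12% of all windows, and the pyrimidine run in 11.5% and 7.71%. EIF4A2 holds the TATA box, RCC1 and RPL32 hold the ETS core, and the letters searched are not in the SNHG8 window.
The RPL32 window was covered over 298 and 300 of its bases in the controls and over 190 and 295 with vitamin C. The RCC1 window was covered whole in every library. The EIF4A2 window was covered over 280, 238, 185 and 136 bases, in the order control replicate 1, control replicate 2, vitamin C replicate 1, vitamin C replicate 2, an order kept below for all sets of 4 values.
Of the 130 host windows, 28, 23, 15 and 17 met a peak (21.5%, 17.7%, 11.5% and 13.1%), against 7.32%, 6.09%, 3.14% and 3.14% of 27195 windows, 1 for each gene of the promoter table on chromosomes 1 to 22 and X. Ribosomal protein hosts had 7, 6, 5 and 5 of their 9 windows at a peak, and the other protein-coding hosts that encode no translation factor 17, 15, 8 and 10 of 101. Hosts with a kept member had 11, 10, 10 and 9 of 19 windows at a peak, and hosts with no peak at any member 13, 10, 4 and 4 of 91. A peak at a member can be the peak that meets the start window, so these counts are not independent of the members' own peaks.

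A member was counted as having a peak in a library if the gene, widened by 250 bp on each side, shared at least 1 base with a peak of that library's own list. The control lists had a peak at 65 and 63 members (30.8% and 29.9% of 211), and the vitamin C lists at 45 and 38 (21.3% and 18%). The vitamin C mean of 41.5 ± 4.95 (SD, n = 2) was 64.8% of the control mean of 64 ± 1.41 (SD, n = 2), and the groups did not overlap. Over all RefSeq genes the same share was 53.7%, over box C/D snoRNA genes (SNORD) 69% and over genes of at most 400 bp 74.5%. An exact two-sided permutation test of 2 against 2 libraries cannot give a p below 0.333, so no p-value is given for the difference between the groups.
The control lists were the longer, 30351 and 24111 peaks against 9816 and 9896 under vitamin C, while the labelled depth, solved from the authors' fold and p, was 0.817, 0.849, 1.22 and 0.871 fragments per position. When each list was shortened to its 9816 peaks of lowest q, 50, 44, 45 and 38 members had a peak, and the log2 ratio of the means went from -0.62 to -0.18. The groups then overlapped, and all genes gave -0.13 on the same scale.

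By pattern, 58 members had a peak in both controls, 27.5% of all members against 14.3% of all RefSeq genes, 6.98% of genes of at most 400 bp and 28.7% of SNORD genes. Of these 58, 31 (53.4%) had a peak in all 4 libraries and are called kept, 11 (19%) had none with vitamin C and are called lost, and 16 (27.6%) had a peak in 1 vitamin C library, 10 of them only in replicate 1 and 6 only in replicate 2. Of all RefSeq genes that met a peak in each control, the kept share was 48.6% and the lost share 28%, and 23.4% had a peak in 1 vitamin C library. The corresponding shares were 61.5% and 17.3% of SNORD genes, 76.8% and 12.4% of genes of at most 400 bp and 95.4% and 2.62% of tRNA genes. No member was gained (peaks in vitamin C replicates 1 and 2 and in neither control), against 0.0102% of all genes. A further 14 members had other patterns, and 139 (65.9%) had no peak in any library, against 79.7% of all genes. In such bulk samples, fewer cells with an opened locus and less opening per cell cannot be told apart.

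Control strength was measured as the rank, in percent, of a member's strongest peak by fold among the peaks of its list, averaged over the controls, and it was higher at kept members than at most others. Kept members ranged from 57.4 to 99.7 with a median of 96.3, members kept in 1 vitamin C library had a median of 55.1, and lost members ranged from 21.2 to 99.7 with a median of 64.1. Below the 50th percentile none of 9 members was kept, and above the 97th percentile 15 of 17 were. The same bins held 13.9% and 97.7% kept among all genes, where 1.14% of the strongest were lost. The members lost in that strongest bin were 2 of 17 (11.8%), SNORA70 and SNORA3A, and SNORD genes lost there were 4 of 43 (9.3%).

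**Figure D1:**
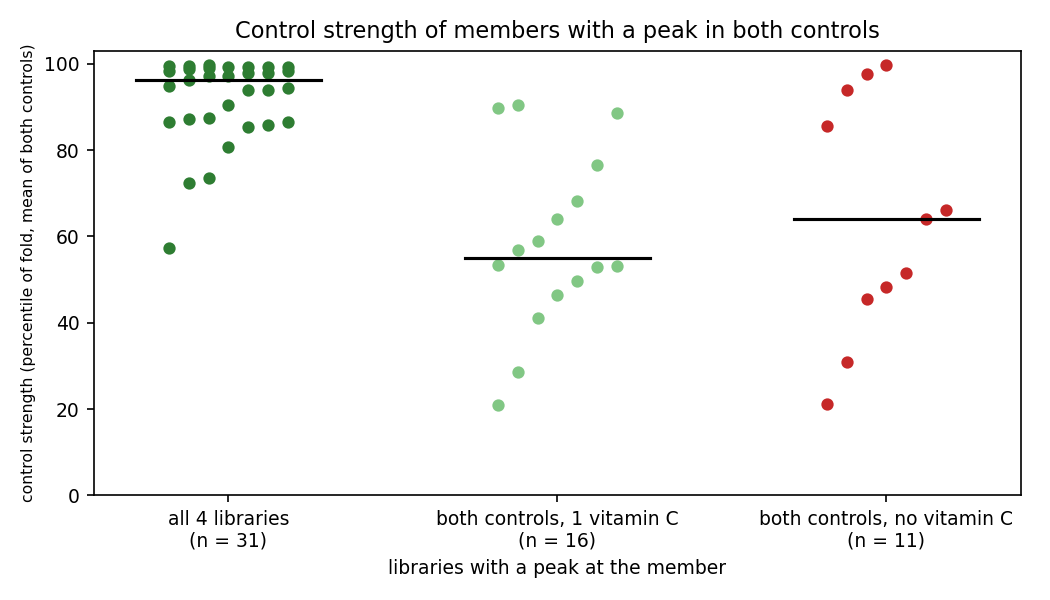
Control strength (y axis, percentile of the best peak's fold in its own list, mean of both controls) of the 58 members with a peak in both controls, by the libraries with a peak; each point is 1 member and the line is the median. Kept members sit mostly above 80, while 4 of the 11 lost members stand among them.

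SNORA genes, 182 of the 211 members, gave nearly all the peaks. Among them 62, 60, 42 and 37 had a peak (34.1%, 33%, 23.1% and 20.3%). Of 29 SCARNA genes 3, 3, 3 and 1 had a peak (10.3%, 10.3%, 10.3% and 3.45%). The shares over all RefSeq genes were 18.2%, 16.2%, 9.22% and 9.23%, and 29 genes are few for a comparison. The 3 SCARNA genes with a peak were SCARNA2, SCARNA4 and SCARNA9L, and the other 26 had none in any library.
SCARNA2, a box C/D-type guide for the U2 spliceosomal RNA that is known to be transcribed from its own promoter, had the highest control strength of all kept members. It lies at chr1:109100193-109100612 with no host gene, and its peaks were 808, 593, 326 and 405 bp wide with summit heights of 95.5, 88.3, 68.6 and 66.6 times the genome-wide mean pileup. Both vitamin C libraries were lower than both controls in width and in height. Its 4 summits fell within 27 bp of each other, 51 to 78 bp outside the gene, at the side of lower coordinates.
SCARNA4, an H/ACA scaRNA inside KHDC4, had peaks of 1163, 642 and 518 bp and none in vitamin C replicate 2. SCARNA9L, a relative of the C/D-type SCARNA9 in EIF1AX, had peaks of 215, 690 and 664 bp and likewise none in vitamin C replicate 2. That library was less deep than vitamin C replicate 1, 0.871 against 1.22 fragments per position, and the part of depth in this difference was not tested.

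Members were then grouped by host, taken as the longest other RefSeq gene that contains the whole member. Strand was not used in this choice, so a host can lie on the strand opposite to its member. A host was found for 200 members, in 164 distinct genes. Of 17 members in ribosomal protein genes, which encode the protein part of the ribosome, 14 met a peak in each control, and 9 of them were kept and 2 lost. Of 8 members in translation factor genes, 7 met a peak in each control, with 2 kept and 2 lost. Non-coding hosts held 35 members, of which 11 met a peak in each control, 8 of them kept. These counts depend on the choice of host. With the shortest containing gene instead, translation factor genes held 11 members, 9 with a peak in both controls and 4 kept. Non-coding hosts then held 46 members, 16 with a peak in both controls and 9 kept. The 140 members in other protein-coding genes were mostly without peaks, with 105 at none, 23 with a peak in both controls, 9 kept and 5 lost. Of 11 members without a host, 3 had a peak in both controls, SCARNA2, SNORA50C and SNORA80C, and all 3 were kept.

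**Figure D2:**
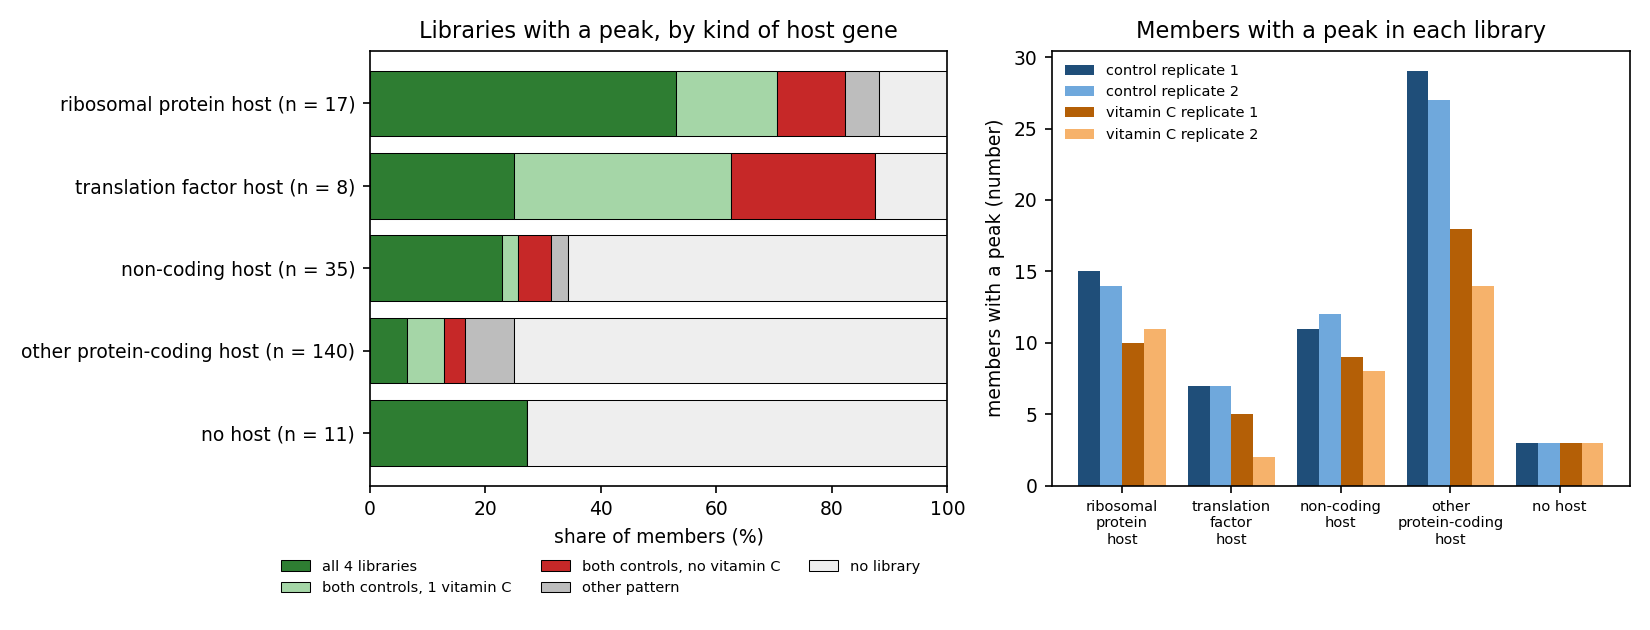
Left, share of members (x axis, %) by the libraries in which they had a peak, for each kind of host gene; right, number of members with a peak (y axis) in each of the 4 libraries. Members in ribosomal protein and translation factor hosts have the smallest shares without a peak (2 of 17 and 1 of 8), and members in other protein-coding hosts the largest (105 of 140).

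Host length, taken from the longest containing gene only, went with these groups. Of 46 members in hosts under 10 kb, 27 met a peak in each control and 19 of these were kept, while 71 of 76 members in hosts of 50 kb or longer had no peak in any library. Hosts that also hold a SNORD gene had 23 members, of which 19 met a peak in each control, 11 of them kept. Of 41 members whose number is used by 4 or more genes, 29 (70.7%) had no peak in any library, near the 65.9% of all members. These families ran from all 7 SNORA11 genes and 9 of the 10 SNORA70 genes without a peak to 2 of 5 for both SNORA71 and SNORA80, and how reads of near-identical copies were placed is not given in the sources used here.
In ribosomal protein hosts the peaks spread over the gene rather than the snoRNA. Peaks covered 60.1%, 53.2%, 28.7% and 28.2% of the widened members there, and 75.5%, 72%, 50.4% and 45.5% of the rest of the hosts. These shares are pooled over the bases of all hosts of a kind, so long hosts weigh most. In other protein-coding hosts they were 12%, 10.9%, 7.13% and 5.95% of the widened members against 1.77%, 1.52%, 0.596% and 0.507% of the rest. Counted by host, 87, 85, 61 and 63 of these 121 hosts had a peak outside the widened members. Of their 140 members, 29, 27, 18 and 14 had a peak.
A host with a peak often had none at its snoRNA: of 151, 148, 118 and 122 members whose host had a peak, 89, 88, 76 and 87 had no peak themselves. All 11 lost members lay in hosts that still carried a peak in vitamin C replicate 1 and in vitamin C replicate 2.

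The position of the peaks was examined over all members with a peak. Members had a median length of 135 bp, and their best peaks had median widths of 1242, 1160, 830 and 709.5 bp. A gene so much shorter than its peak can miss the summit wherever the peak lies, so the summit counts decide nothing about hosts. The summit of the best peak lay inside the member itself for 4, 4, 3 and 1 members, and 20, 24, 16 and 17 of the members with a peak were met only in the 250 bp flank. Of the 31 kept members, 28 had no summit in the gene in any library. Only SNORA61, in SNHG12, had its summit in the gene in all 4, with summits 38.5, 21.5, 26.5 and 22.5 bp from its middle.
Along the transcription of ribosomal protein hosts of known strand, peaks covered 90.9%, 72.7%, 54.5% and 72.7% of 11 members at 500 bp before their middle. At the middle itself they covered 54.5%, 36.4%, 27.3% and 9.09%, and 500 bp after it 81.8%, 81.8%, 36.4% and 45.5%. Coverage was thus lower at these 11 snoRNAs than at 500 bp on either side in each of the 4 libraries. tRNA genes, whose promoter for RNA polymerase III lies inside the gene, showed the reverse. Of these genes 67.9%, 67%, 62.1% and 63% were covered at the middle and 35.9%, 35.4%, 20.3% and 19.9% at 500 bp below it. The dip was smaller over all 161 members in hosts of known strand. They had 22.4%, 21.1%, 13% and 11.2% before, 19.9%, 17.4%, 11.8% and 9.32% at the middle and 26.7%, 24.8%, 12.4% and 9.94% after. SNORD genes, in genome orientation, were nearly level. They had 24.9%, 24.3%, 13.3% and 13.8% below, 24.3%, 22.1%, 12.7% and 13.3% at the middle and 25.4%, 22.7%, 13.5% and 13.5% above.

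**Figure D3:**
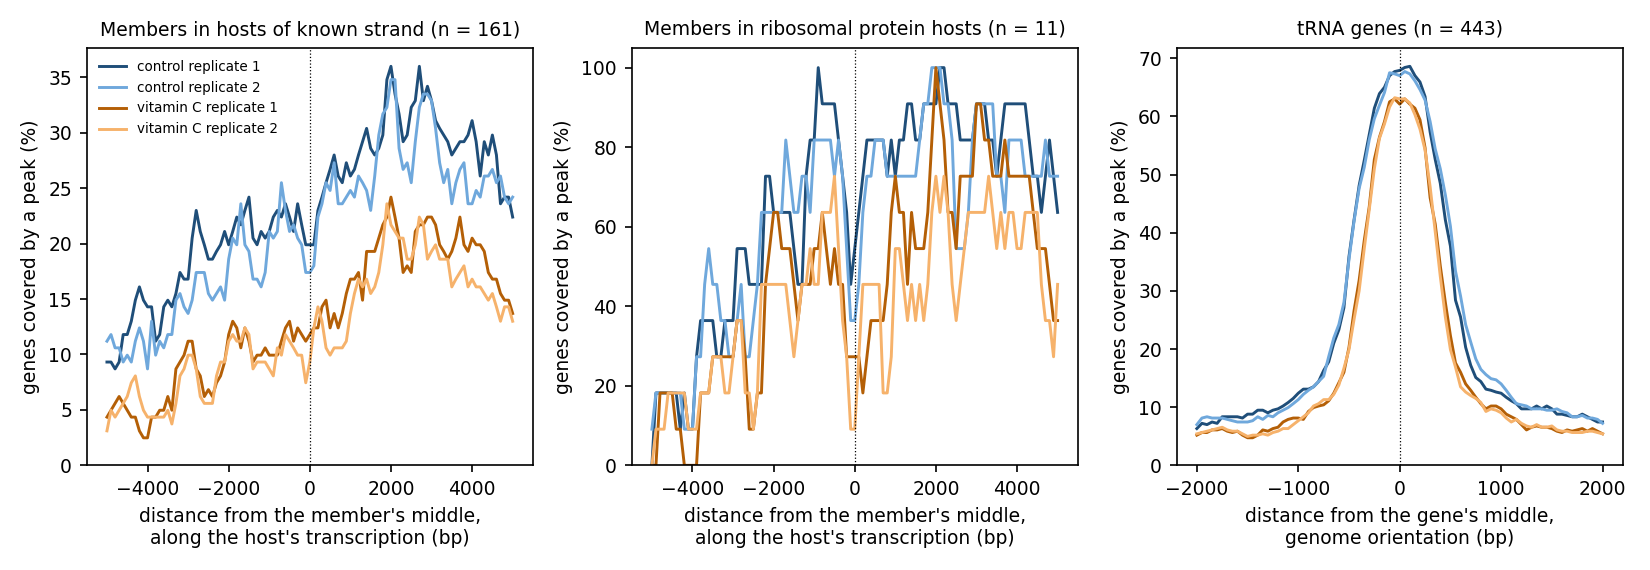
Share of genes covered by a peak (y axis, %) against distance in bp from the gene's middle (x axis) in each of the 4 libraries, for members in hosts of known strand, for the 11 members in ribosomal protein hosts of known strand and for tRNA genes. tRNA peaks are centred on the gene, whereas in ribosomal protein hosts coverage dips at the snoRNA.

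The strongest loss was SNORA70 in RPL10, a gene of the large ribosomal subunit. The 2 control peaks at SNORA70 (chrX:154400281-154400415) were 4779 and 4611 bp wide, 106 and 81.2 times the genome-wide mean high, and covered all of its 135 bases. With vitamin C no peak met the widened gene, but peaks flanked it, ending 279 and 270 bp below it and starting 644 and 898 bp above it. RPL10 as a whole stayed covered over 99.9%, 97.4%, 69.7% and 57.3% of its length, so the loss was a gap in the middle of a host that kept its peaks.
SNORA3A and SNORA3B, neighbours in RPL27A, differed in pattern. SNORA3A (chr11:8684227-8684356) had control peaks of 929 and 1160 bp and no peak with vitamin C, where the nearest peaks ended 610 and 367 bp below it. SNORA3B had peaks of 1580, 1636, 595 and 552 bp, with 4 summits within 30 bp.
EIF4A2, which encodes an RNA helicase of translation initiation, holds 4 members in a row. SNORA63B and SNORA81, nearer to its start, had control peaks of 1919 and 1840 bp and of 5751 and 1662 bp and none with vitamin C. SNORA63 and SNORA4, further down, shared peaks of 5751, 1662, 1060 and 4561 bp and were kept. The same control peaks thus covered or flanked SNORA81 and SNORA63, and the vitamin C peaks began 465 and 579 bp above SNORA81.
These 4 losses, SNORA70, SNORA3A, SNORA63B and SNORA81, were the ones that remained with lists of equal length, where 39 members still met a peak in each control and 4 of them were lost (10.3%, against 8.06% of all genes).
The other lost members had weaker control peaks. SNORA16A in SNHG12 had 368 and 454 bp, SNORA74A and SNORA74D in MATR3 had 1635 and 458 bp and 248 and 912 bp, and SNORA20 in TCP1 had 660 and 453 bp. SNORA32 in TAF1D had 325 and 980 bp and SNORA71D in SNHG17 had 370 and 944 bp, and SNORA58 in MRPL3 closed the list with 388 and 217 bp. For 5 lost members the control peak was met by a vitamin C peak in both libraries and for 1 (SNORA74A) in 1 library, so that a peak remained under part of the control peak. For the other 5, SNORA16A, SNORA20, SNORA58, SNORA71D and SNORA74D, no vitamin C peak met the control peak.

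Width was taken from the best peak at each member. The 31 kept members lay in 25 loci, and neighbours can share a peak, so the counts below are not of independent peaks. The vitamin C medians of 1111 and 814 bp are the widths of peaks that SNORA61 and SNORA44 share. At the 31 kept members the median width was 1947, 2162, 1111 and 814 bp, and the median log2 ratio of vitamin C to control was -0.94, against -0.53 for all kept genes, -0.40 for genes of at most 400 bp and -1.38 for SNORD genes. These sets differed in control width, with medians of 733 and 683.5 bp for all kept genes and 3030 and 2939 bp for SNORD genes. Genes of at most 400 bp had 1221.5 and 1230 bp. The part of control width in the ratios was not tested. Both vitamin C peaks were narrower than both control peaks at 16 kept members (51.6%, against 59.7% of all kept genes), and both were wider at none (2.16% of all genes). The controls differed between themselves by a median of 0.65 on the log2 scale and the vitamin C libraries by 0.40. Over the bases of the widened gene alone, the ratio was -0.34.
Summit heights, as multiples of the genome-wide mean pileup at a summit that can lie outside the member, had medians of 53.9, 40, 26.9 and 26.4, a median log2 ratio of -0.60 against -0.48 for all genes. Both vitamin C heights were below both control heights at 24 of 31 kept members (77.4%, against 67.3% of all genes), while both were above them at none (2.53% of all genes), and the group mean was lower at all 31. The mean height was also lower at 90.9% of all kept genes, 99.4% of those of at most 400 bp and 100% of kept SNORD genes.

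**Figure D4:**
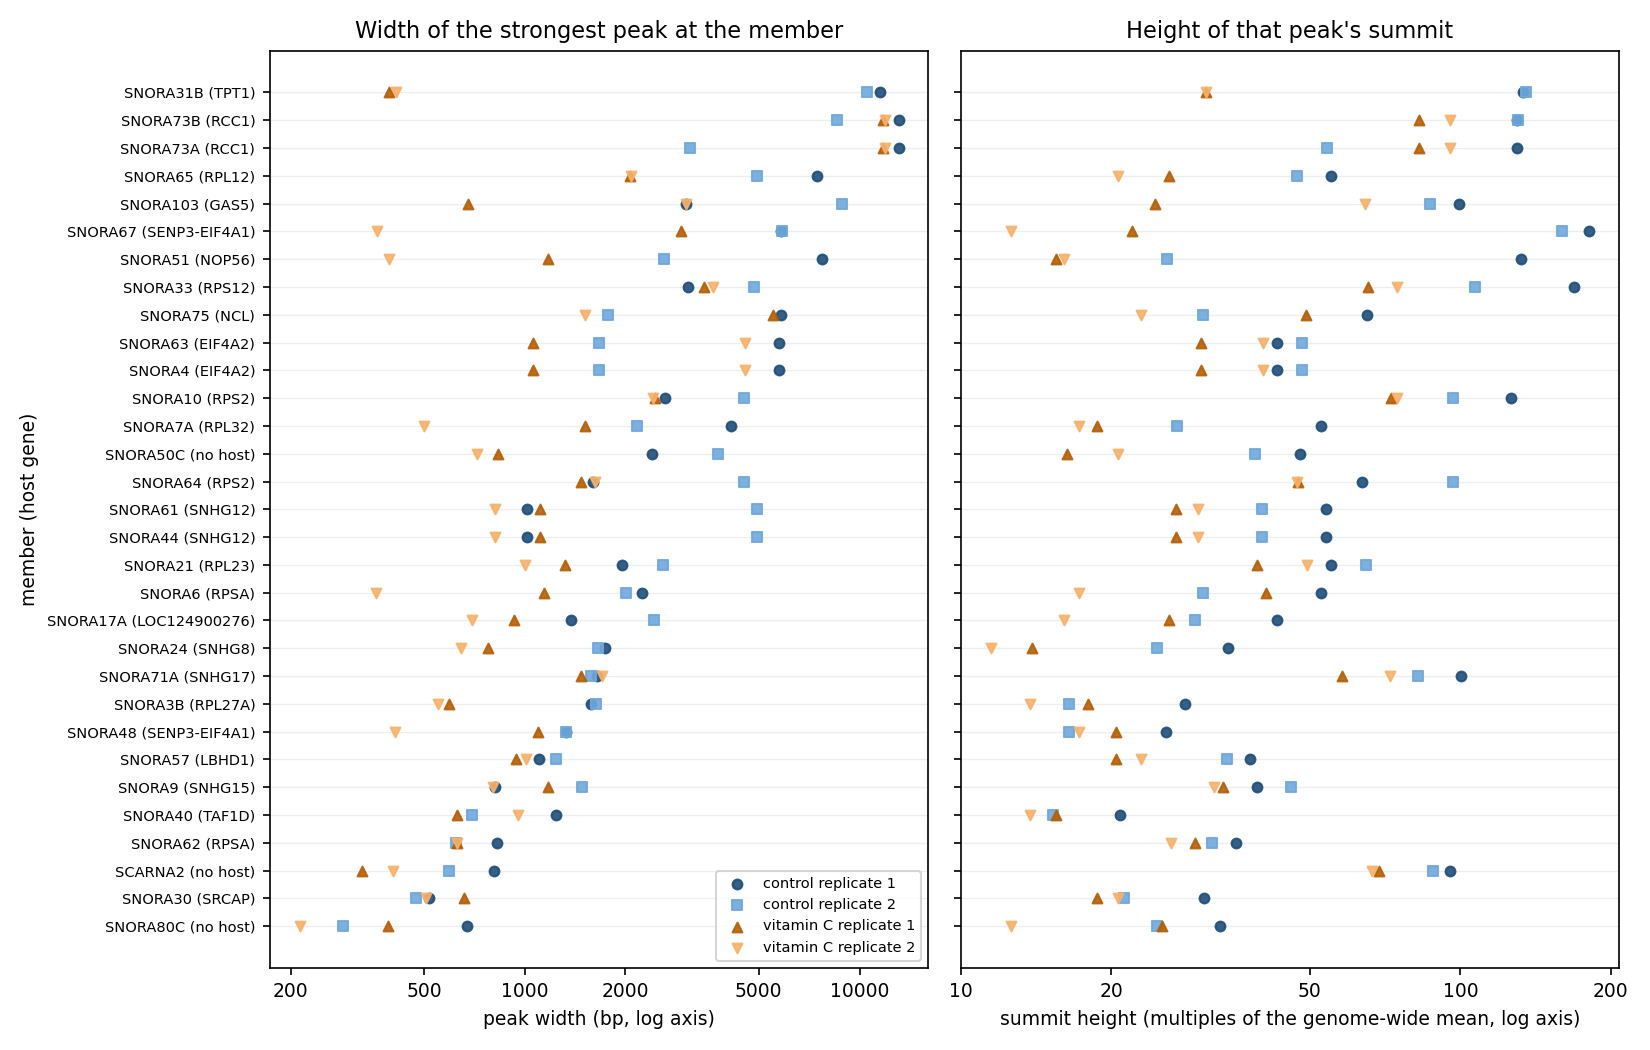
Width in bp (left, log axis) and summit height as multiples of the genome-wide mean pileup (right, log axis) of the best peak at each of the 31 kept members, 1 point for each of the 4 libraries, ordered by mean control width. SNORA31B has the largest gap between the groups in width, and SNORA73A and SNORA73B stay wide with vitamin C.

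SNORA31B in TPT1, a gene of an abundant translation-linked protein, had the largest difference in width among kept members. Its control peaks were 11474 and 10495 bp wide and its vitamin C peaks 393 and 413 bp (log2 ratio -4.77), and their heights were 133, 135, 31 and 31. All 4 peaks covered its whole length of 134 bases, and the control summits lay 1762 and 1746 bp outside the gene, against 54 and 32 bp with vitamin C. The neighbouring SNORA31 had a peak only in control replicate 1, the same peak of 11474 bp.
SNORA67, inside EIF4A1 and the longer SENP3-EIF4A1 readthrough gene, had widths of 5820, 5854, 2926 and 361 bp and heights of 181, 160, 22 and 12.6. SNORA51, inside NOP56, whose protein belongs to the box C/D particle, had widths of 7739, 2606, 1172 and 394 bp. Both genes were narrower and lower in both vitamin C libraries than in either control.
SNORA65 in RPL12 had widths of 7484, 4941, 2065 and 2079 bp, and SNORA10 in RPS2 had 2631, 4505, 2445 and 2413 bp. With vitamin C the peaks covered only 95 and 55 of the 636 bases of the widened SNORA65, in its flank. SNORA64, in the same host RPS2, had 1605, 4505, 1471 and 1619 bp, so its groups overlapped. SNORA33 in RPS12 had 3072, 4828, 3443 and 3661 bp, with both vitamin C widths between the controls, while its heights of 169, 107, 65.3 and 74.6 did not overlap. These peaks met only its 250 bp flank, and no peak touched SNORA33 itself in any library. In vitamin C replicate 1 no base of the widened gene inside RPS12 was covered.
SNORA103 in GAS5, a non-coding host of many snoRNAs, had widths of 3030, 8892, 676 and 3025 bp, and SNORA50C, without a host, had 2406, 3788, 830 and 721 bp. In vitamin C replicate 1, peaks covered 11 of the 586 bases of the widened SNORA103 that lie in GAS5. Without widening, SNORA65, SNORA10, SNORA33 and SNORA103 were no longer kept.
SNORA73A and SNORA73B, the U17 RNAs that are needed for cleavage of the ribosomal RNA precursor rather than for its modification, share RCC1 as host and lie within SNHG3. SNORA73B had widths of 13077, 8580, 11754 and 11924 bp and heights of 130, 131, 82.5 and 95.3, so that both vitamin C widths lay between the control widths while both heights were below the controls. SNORA73A had the same peaks except in control replicate 2, where its best peak was 3127 bp wide and 54.2 high. The peaks at SNORA73A reached the annotated start of RCC1 in all 4 libraries.
SNORA71A in SNHG17 also had overlapping groups in width, 1646, 1575, 1472 and 1707 bp, with heights of 100, 82.4, 58 and 72.3 that did not overlap and 4 summits within 12 bp. Its neighbours from the same host differed: SNORA71C had 748, 767 and 295 bp with no peak in vitamin C replicate 2, SNORA71D was lost, and SNORA71B had no peak. SNORA21 in RPL23 had 1947, 2597, 1319 and 1002 bp, with 4 summits within 10 bp.
TAF1D, which encodes a subunit of the RNA polymerase I factor SL1, holds 6 members, and their patterns differed. SNORA40 was kept at 1242, 698, 629 and 952 bp, SNORA32 was lost, and SNORA25 and SNORA8 had a peak in vitamin C replicate 2 but not in replicate 1. SNORA18 had a peak in control replicate 1 alone, and SNORA1 in control replicate 2 and vitamin C replicate 1. In SNHG12, SNORA61 and SNORA44 shared peaks of 1013, 4928, 1111 and 814 bp, and SNORA16A was lost. KANSL2 and TBRG4, with 3 members each, had no peak at any of them.

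Of the miRNA-bearing members printed above, SNORA81 was lost from wide control peaks, and neither of the other 2 was kept. SNORA36A in DKC1 had control peaks of 606 and 561 bp and a peak of 211 bp in vitamin C replicate 1, with none in replicate 2. SNORA36B had a peak of 506 bp in control replicate 1 only. That peak covered 45 of the 631 bases of the widened gene, in its flank, so the printed stretch was not under a peak. SNORA7A in RPL32 was kept, at 4146, 2162, 1515 and 502 bp. Its best peak reached the annotated start of RPL32 in every library but vitamin C replicate 2, where the start window still met a peak. SNORA24 in SNHG8, 428 bp past the host's start, was kept at 1740, 1660, 777 and 645 bp. Its best peak reached that start in the controls and not with vitamin C. The start window of SNHG8 still met a peak in all 4 libraries. With vitamin C, peaks covered 85.4% and 84.2% of SNHG8 outside the widened SNORA24.

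A list of 20 genes for the H/ACA particle, its assembly and its relatives was examined in the same way, over whole genes widened by 250 bp. Of these, 8 were kept, 3 lost, 1 kept in 1 vitamin C library, 3 had other patterns and 5 no peak. For comparison, 32% of all protein-coding genes met a peak in each control, and among those the kept share was 47.1% and the lost share 28.4%. Among the core proteins, DKC1 (dyskerin) had peaks of 691, 627, 304 and 304 bp with heights of 50.2, 53, 14.7 and 33.3, and NHP2 was also kept at 855, 1352, 652 and 670 bp. GAR1 had 508 and 534 bp in the controls and was lost, and NOP10 had a peak of 275 bp in control replicate 2 only. Of the assembly factors, NAF1 and SHQ1 were lost, at control strengths of 34.7 and 41.4, while RUVBL1, RUVBL2 and NOLC1 were kept. TERC, the telomerase RNA, which ends in an H/ACA domain and has its own promoter, had widths of 1442, 667, 277 and 216 bp and heights of 28.2, 24.7, 18.8 and 16.1. Both vitamin C values lay below both controls in width and height. WRAP53, whose protein brings scaRNAs and telomerase RNA to Cajal bodies, was kept at 1491, 1291, 884 and 606 bp. TOE1, a 3′ end trimming enzyme, was kept at 381, 330, 518 and 369 bp, and PUS7 was kept in vitamin C replicate 2 only. COIL, TERT, SMN1, SMN2 and GEMIN2 had no peak, and SMN1 and SMN2 are near-identical copies whose reads may not be told apart.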

How the data were processed

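Peak lists of 4 labelled KAS-seq libraries (2 control, 2 vitamin C) were used. The submitters' processing notes name MACS2 2.2.7.1, Bowtie2 2.4.5, bcl2fastq 2.19, cutadapt, Trim Galore and deepTools, with build hg38; the sources used here give no settings. A deposited list holds the positions of its peaks, a fold enrichment (a ratio over background), a −log10 p and a −log10 q as the authors' peak caller wrote them. The deposited score column was not used. The highest q in any list was 0.00999. Between 4.23% and 5.06% of peaks lay outside chromosomes 1 to 22 and X and were left out.

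Peaks were set against RefSeq genes (GRCh38.p14) in Python 3.11.15 with pandas 2.3.3 and scipy 1.17.1. Pileup and background at each summit were solved from fold and p to within 0.005 in −log10 p, and the pileups of vitamin C replicate 1 are scaled by 0.776 in its list, which was undone for the depth. Pattern calls and this solution were tested on simulated peaks, the solution without scaling only, so the scaling of vitamin C replicate 1 was not tested. The overlap search was compared with a direct search on the deposited lists. Intervals and SDs of 2 libraries cover these libraries only. Peaks were called per library, so a pattern depends on each list's threshold. The members and lists were chosen with earlier results of these data known. Named members are the 10 strongest kept and 10 strongest lost by control strength, SCARNA genes with a peak in both controls, members of hosts with 3 or more, and the strongest without a host; further members are named to describe hosts, widths or printed sequences and were chosen after their values were seen. Alternatives changed the q or fold threshold, list length, widening, overlap, peak choice, replicates and host.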

Additional observations from a re-analysis of the deposited data

How the results depend on the processing

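The log2 ratios of members with a peak and of width did not change direction in any alternative tried, and the other main results are counts without a direction. Of 78 values, 25 moved beyond the replicate spread or by more than 1.5 times. The replicate block (replicate 1 against 1 and 2 against 2) gave a log2 ratio of -0.63 for members with a peak and -0.93 for width, and counts come from no test, so they have no paired form. Over kept members, replicate 1 minus replicate 2 correlated between the groups at 0.00 in log2 width and 0.25 in log2 height. The labels name nothing that libraries of one number share, and the numbers were not taken to pair libraries. The log2 ratio of members with a peak was -0.18 with equal list lengths, -0.46 by locus, -0.46 with widening of 1000 bp, -0.20 with summits only and -0.92 where peaks had to cover at least 50% of the gene, and -0.75 to -0.51 on leaving out a library. Kept members numbered 18 without widening, 54 with 1000 bp, 6 with summits and 13 with 50% cover, and 31 to 41 without a library. Lost members numbered 4 with equal list lengths, 4 by locus, 1 with summits, 7 with 50% cover and 5 when a vitamin C peak was sought anywhere under the control peak (added after seeing the data). Without control replicate 2, vitamin C replicate 1 or vitamin C replicate 2 there were 17, 21 and 17 lost, a range of 14 to 21 over the 4 libraries. Gained members numbered 3 with summits (SNORA31B, SNORA30 and SNORA24), and 0 to 1 without a library. Kept members in ribosomal protein hosts were 2 without widening, 15 with 1000 bp, 1 with summits, 2 with 50% cover and 9 to 11 without a library. The width ratio was -0.34 over covered bases, and -1.13 to -0.75 without a library. Of 40 named members, 6 had the same pattern in all 11 alternatives tried on them, among 16 kept members SNORA40 and SNORA61, and none of the 10 lost. Depth limits what a missing peak means: it says only that no peak passed that list's threshold.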
